A study of Drosophila melanogaster with 36 samples.

Results

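Adult male Drosophila melanogaster were exposed for 4 h to DDT, and their RNA was set against that of unexposed males for 159 named genes, mostly cytochrome P450s, glutathione S-transferases (GSTs) and esterases. The experiment was chosen by its label. It is covered by 3 of the 36 arrays of the series, and all 159 genes with a single symbol on the array are described. The strain of both pools was y cn bw sp, which carries visible body and eye colour markers. Males were gathered within 24 h of emergence and held at 25 °C, and the labels give an age of 4 days, except that the exposed channel of array 1 is labelled 5 days.

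Exposed males were placed in 30 ml scintillation vials whose walls had been coated by rolling 10 µg DDT in 150 µl acetone until dry. Control males went into vials coated with acetone alone. There were 8 samples of 50 males in each arm, and the RNA of each arm was pooled before labelling, so that each pool stood for 400 whole flies. The other adult exposure of the series, 10 µl of 1 M phenobarbital in the same volume of acetone, had its own control pool. The 7 other exposures were of larvae. The title of the series asks whether insecticides induce known detoxification gene families.

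DDT is an organochlorine insecticide that holds voltage-gated sodium channels of nerve cells open. Insects dispose of insecticides of various kinds through 3 families. P450s oxidise them, GSTs join glutathione to them or remove chlorine from them, and esterases cleave those that have ester bonds. Strains of Drosophila that survive DDT often have high constitutive levels of P450s such as Cyp6g1, and GstD1 is known to act on DDT in the test tube. Phenobarbital, a barbiturate, serves as a standard inducer of members of these families.

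The 3 arrays were repeat hybridisations of a single pair of pools, with the exposed pool in Cy5 on arrays 1 and 3 and in Cy3 on array 2. The p-values below therefore compare 2 RNA pools against array error, and do not measure the spread between flies or vials. Array 4 was left out because its values were identical, in 1936 of 1936 spots, to those labelled array 4 of the phenobarbital males. Between 1584 and 1656 of the 1936 spots gave a usable ratio on each of the 3 arrays, and 158 of 159 genes had a value on array 1 and all 159 on arrays 2 and 3. All ratios below are log2 of exposed over control, relative to the median named gene of each array, so they hold no absolute level. Whether the marker genes of a whole male fly are expressed could not be checked from ratios, and a ratio cannot separate a change in the number of cells of a type from a change in RNA per cell. The labels do not state which dye is the numerator. Cy5 over Cy3 was assumed, and with the opposite direction every call described here would change sides.

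With DDT 10 of 159 genes, 6.29%, passed an adjusted p of 0.05 in limma (Benjamini-Hochberg) together with at least 1.5-fold. An unadjusted p under 0.05 was found for 29 of the 159 genes, 18 higher and 11 lower. Of the 10 genes called, 7 (4.4% of 159) were higher in exposed males and 3 (1.89%) were lower. The genes that rose were the GSTs GstD2, GstD5, GstD8, GstT4, GstE1 and GstD1, and Ace, which encodes acetylcholinesterase. The genes that fell were Cyp6a8, Cyp4ac1 and alpha-Est2, 2 P450s and a carboxylesterase. The ratios were small beside those of phenobarbital in the same strain and sex: over the 159 genes the SD of the ratio was 0.46 with DDT and 0.85 with phenobarbital.

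**Figure D1:**
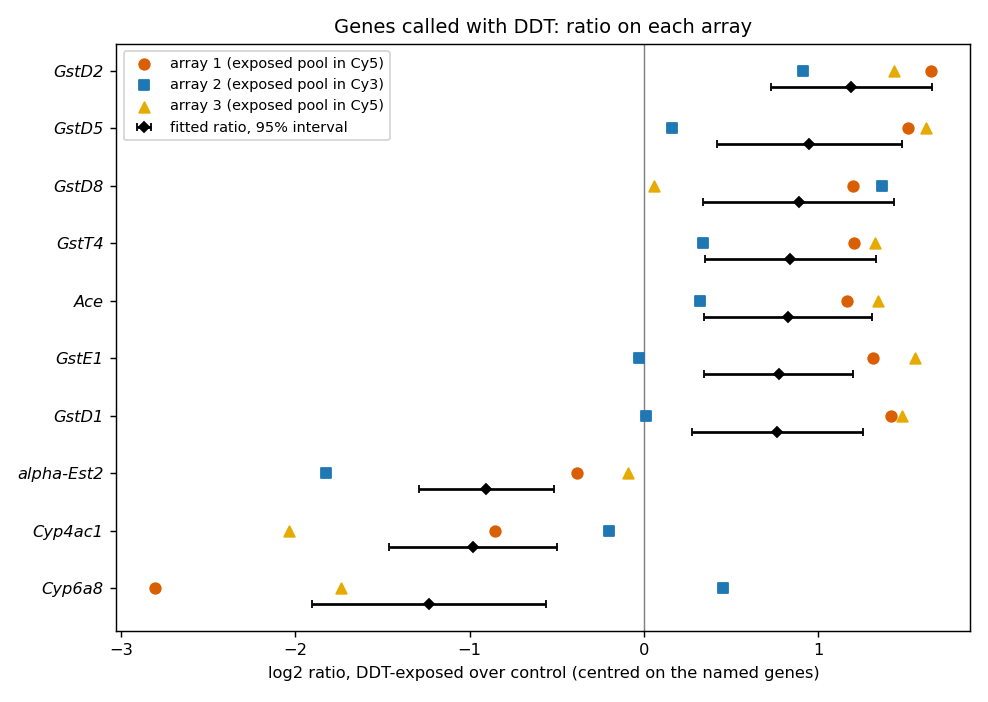
Log2 ratio of DDT-exposed over control on each array (coloured points) and the fitted ratio with its 95% interval (black) for the 10 genes called. For 5 of the 7 genes called higher, array 2 gave a ratio between -0.03 and 0.34 and arrays 1 and 3 gave ratios above 1.1.

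GstD2 was the highest of all 159 genes. This delta-class GST had ratios of 1.65, 0.91 and 1.44 on arrays 1, 2 and 3. All 3 arrays lay on the same side and none was near 0. The fitted ratio was 1.19 ± 0.23, a 2.28-fold rise (limma, adjusted p = 0.00207). Here and below ± is the SE of the fit. Its error was taken from all 34 arrays fitted, 3 of them DDT, so it is not the spread of the 3 DDT arrays.

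Its relative GstD5 gave 1.52, 0.16 and 1.62, so that arrays 1 and 3 were alike and array 2 stood near 0. The fitted rise was 0.95 ± 0.26, or 1.93-fold (limma, adjusted p = 0.0274, 3 of 3 arrays higher). GstD8 differed in pattern, with 1.20, 1.37 and 0.06. Here array 3 was the low one, only 2 of its spots were usable on array 1 and 3 on array 3, and its spots differed among themselves by an SD of 1.48. The fit gave 0.89 ± 0.27 (limma, adjusted p = 0.0398, 3 of 3 arrays higher). Without array 3 GstD8 was at 1.29, and it was not called without array 1 (0.71) or without array 2 (0.64).

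GstD1, which codes for the most studied delta GST, had ratios of 1.42, 0.01 and 1.48, and passed narrowly at 0.77 ± 0.24 (limma, adjusted p = 0.0491, 3 of 3 arrays higher). GstE1, of the epsilon class, gave 1.32, -0.03 and 1.55. Its fitted rise was 0.77 ± 0.21 (limma, adjusted p = 0.0274), with 2 of 3 arrays higher. GstT4, of the theta class, was higher on all 3 arrays at 1.21, 0.34 and 1.33. Its fitted rise was 0.84 ± 0.24 (limma, adjusted p = 0.0274). GstD5, GstE1 and GstT4 were called without array 2 but not without array 1 or array 3, and GstD1 was not called with any of the 3 left out. Over these fits GstD5 lay between 0.84 and 1.13, GstE1 between 0.64 and 0.93, GstT4 between 0.77 and 0.92, and GstD1 between 0.71 and 0.85.

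Acetylcholinesterase ends signalling at cholinergic synapses by cleaving acetylcholine, and is the target of organophosphates but not of DDT. Ace had ratios of 1.17, 0.32 and 1.34, higher on all 3 arrays and lowest on array 2. It rose by 0.83 ± 0.24, or 1.78-fold (limma, adjusted p = 0.0274). It was not called without array 1 (0.83) or without array 3 (0.74). The cholinesterase-like neuroligins, adhesion proteins of synapses that lack the enzyme activity, stood at 0.00 ± 0.17 (Nlg3), -0.18 ± 0.25 (Nlg1) and -0.40 ± 0.34 (Nlg4), and none of the 3 passed the test.

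Among the genes that fell, alpha-Est2, a carboxylesterase of the alpha-esterase cluster, gave -0.39, -1.82 and -0.09. All 3 arrays were below 0 and array 2 was the lowest. The fit gave -0.90 ± 0.19 (limma, adjusted p = 0.0039), 1.87-fold lower than in control males. Without array 2 it was -0.62 and not called. Cyp4ac1, a CYP4-clan P450, had -0.86, -0.20 and -2.04, lower on 3 of 3 arrays but with an SD of 1.67 between its spots. It was 1.97-fold lower, at -0.98 ± 0.24 (limma, adjusted p = 0.0148). Without array 3 it was -0.53 and not called. Its neighbours in the Cyp4ac triplet did not pass, Cyp4ac2 at -0.19 ± 0.17 and Cyp4ac3 at 0.26 ± 0.19.

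Cyp6a8 is a P450 known for strong induction by barbiturates and for high levels in some DDT-resistant strains. Its ratios were -2.80, 0.46 and -1.74, so it was lower on arrays 1 and 3 and higher on array 2. The fitted ratio was -1.23 ± 0.33, or 2.35-fold lower (limma, adjusted p = 0.0274), with an SD of 1.59 between spots. The call was lost in 11 of 19 alternative settings. Without array 1 the ratio was -0.64 and without array 3 -1.17, neither called, and without array 2 it was -1.97.

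Just inside the threshold stood GstD1, described above. Just outside it were GstE3, an epsilon GST, at 0.79 ± 0.25 (limma, adjusted p = 0.0504), and Cyp12c1, a mitochondrial P450. Cyp12c1 had ratios of 0.39, 0.66 and 0.41, higher on 3 of 3 arrays, and passed on p (limma, adjusted p = 0.0274) but missed 1.5-fold at 1.46-fold (0.55 ± 0.15). Hsp22 (0.75 ± 0.26), Cyp4d8 (-0.74 ± 0.25) and the carbonic anhydrase gene CAH1 (-0.60 ± 0.21) each had an adjusted p of 0.0743 in limma.

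The arrays did not repeat one another across dye orientations. Across the named genes the turned ratios of arrays 1 and 3, which carry the same dye, correlated at r = 0.88, while those of array 2 correlated with array 1 at -0.48 and with array 3 at -0.55. These are correlations across genes of the same 2 pools, not across replicates. With the mean dye effect of each gene on the other 31 arrays removed, they were 0.75, -0.19 and -0.24. In phenobarbital males, by contrast, the mean of arrays 1 and 3 correlated with array 2 at 0.60. The mean Cy5 over Cy3 ratio of the DDT arrays correlated at 0.73 with that dye effect. Before any dye term, 17 of 158 genes (10.8%) were higher on all 3 arrays and 18 (11.4%) were lower on all 3. Of the 10 genes called, 8 lay on the same side on all 3 arrays, GstE1 and Cyp6a8 being the exceptions.

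**Figure D2:**
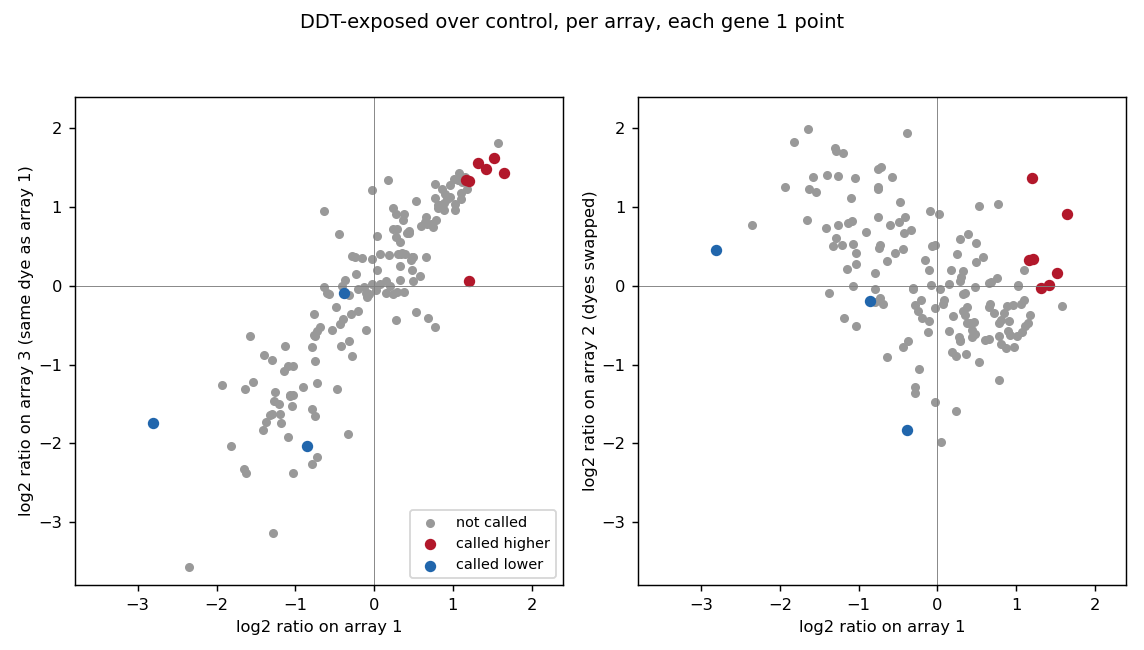
Log2 ratio of DDT-exposed over control on array 1 (x axis) against array 3, with the same dye orientation (left), and array 2, with dyes swapped (right); each point is a gene. Arrays 1 and 3 run together (r = 0.88) and array 2 runs against array 1 (r = -0.48).

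The calls depended on how the dye effect was fitted. The main fit used a dye term common to 34 arrays. With 1 dye term for adult arrays and 1 for larval arrays, 9 genes were called, which were those of the main fit without GstD1. Without a dye term no gene was called, and with a dye term fitted to the DDT arrays alone 2 were, GstD2 at 1.23 (limma, adjusted p = 0.00176) and alpha-Est2 at -1.03 (limma, adjusted p = 0.00117); the other 8 then had adjusted p-values above the threshold, for example 0.0639 for Ace, GstD5 and GstT4. The term fitted to the DDT arrays alone was chosen after the data were seen. Whether the deposited ratios had already been turned was checked on 129 unnamed spots that lay on 1 side on all 31 other arrays once turned by dye. The same side was found for 129 of them on array 1, 129 on array 2 and 77 on array 3. On array 3 those of the control side had a median of 0.38, against -2.17 on the 31 other arrays. Those of the exposed side had 2.57 there, against 3.04. Across the 129 spots, arrays 1, 2 and 3 correlated with the mean of the 31 other arrays at r = 0.986, 0.996 and 0.962. With the ratios of every array taken as already turned, 65 genes were called in place of 10.

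Among the 85 P450s 0 were called higher and 2 lower, with a median ratio of -0.03 beside 0.03 over all named genes. The 0 of 85 stands beside 4.4% called higher among all 159 genes. At an unadjusted p under 0.05, 5 of the 85 were higher and 8 lower, beside 18 and 11 of all 159 genes. For 74 of 85 P450s the upper end of the 95% interval lay below a 2-fold rise, beside 132 of all 159 genes. These intervals are for a single pair of pools, with array error taken from all 34 arrays fitted, 3 of them DDT. They measure neither the spread of the 3 DDT arrays nor that between flies. The 38 members of the CYP3 clan, which holds most of the P450s linked to insecticides, had a median of -0.01 and 1 call, Cyp6a8. Its 14 Cyp6a genes had a median of 0.00. The 32 members of the CYP4 clan had the lowest median of the 4 clans, -0.17, and 1 call, Cyp4ac1. None of the 9 mitochondrial P450s (median 0.07, range -0.62 to 0.55) or of the 6 CYP2-clan members (median -0.10, range -0.75 to 0.25) was called in limma, and Cyp12c1 was the 1 of these 15 with an unadjusted p under 0.05. The 6 P450s that make or break down the moulting hormone ecdysone, which are spread over these clans, ran from -0.75 to 0.16 with 0 called in limma and 0 at an unadjusted p under 0.05.

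**Figure D3:**
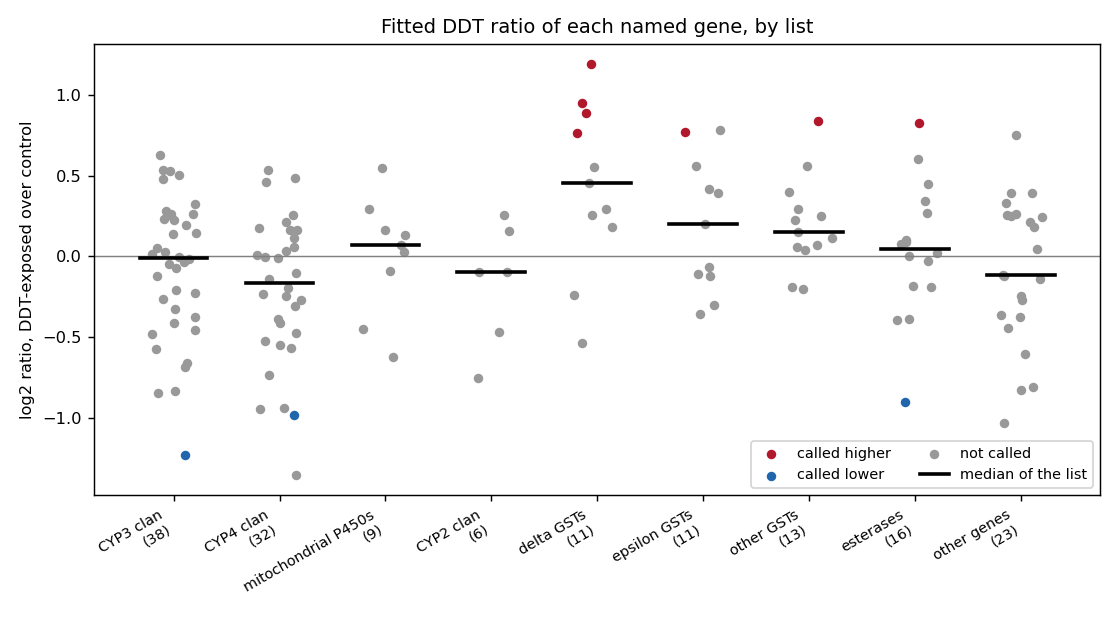
Fitted log2 ratio of DDT-exposed over control for each gene (points), by list, with the number of genes in brackets and the median as a bar. Red and blue points were called higher and lower; 4 of the 11 delta GSTs are red, and no P450 is.

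P450 genes tied to DDT by earlier work did not pass the test as higher. Cyp6g1, whose overexpression accompanies DDT resistance in field strains, had ratios of 0.29, -0.70 and 0.72. Arrays of opposite dye orientation lay on opposite sides. Its fitted ratio was -0.03 ± 0.26, with a 95% interval of -0.56 to 0.49. The P450 genes beside it in the annotation, Cyp6g2 (-0.07 ± 0.24) and Cyp6t3 (-0.37 ± 0.33), did not pass either.

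Cyp6a2, which can metabolise DDT in some resistant alleles, gave -0.09, 0.95 and -0.09 and a fitted 0.26 ± 0.42. Cyp6w1, a P450 found high in a DDT-resistant strain, was higher on 3 of 3 arrays at 0.75, 0.09 and 0.75. At 0.51 ± 0.19 it did not pass (limma, adjusted p = 0.108). With Cyp6a8 and GstD1, 1 of the 5 listed genes was called higher and 1 lower, and their median was 0.26. Cyp12d1 was not among the named genes. The 8 spots with several symbols were left unnamed, so its absence from the named genes does not show that the array lacked it.

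Cyp6a22, the highest P450 at 0.63 ± 0.38, gave 1.03, 0.02 and 1.03 and did not pass (limma, adjusted p = 0.381). It stands at an end of a run of 8 adjacent Cyp6a genes in the reference annotation, and Cyp6a8 at the other end. The 6 genes between them had ratios from -0.05 (Cyp6a21) to 0.53 (Cyp6a23), and none passed. The run thus held both the highest Cyp6a ratio and the lowest.

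The other low ratios lay mostly in P450s. Cyp313a2 had the lowest ratio of all, -1.35 ± 0.58, with -2.35, 0.78 and -3.57 on the 3 arrays, and did not pass (limma, adjusted p = 0.192). The rest of the 10 lowest ratios that were not called belonged to Cyp4d1 (-0.94 ± 0.40), Cyp313a3 (-0.94 ± 0.41), the pseudogenes Cyp6t2Psi (-0.84 ± 0.63) and Cyp6a16Psi (-0.84 ± 0.42), and the genes CG3841 (-1.03 ± 0.63, 1 spot per array) and CG10339 (-0.83 ± 0.58). The SEs of these genes were above the median SE of 0.26. Cyp313a3, Cyp6t2Psi, Cyp6a16Psi and CG3841 were lower on all 3 arrays, while Cyp4d1 and CG10339 were above 0 on array 2, at 0.42 and 1.23.

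Of the 35 GSTs 6 were called higher and 0 lower, beside 4.4% higher and 1.89% lower among all 159 genes. At an unadjusted p under 0.05, 10 GSTs were higher and 1 lower, beside 18 and 11 of all 159 genes. The median of the GSTs was 0.25, beside 0.03 over all named genes. The delta class had 4 of 11 members higher and a median of 0.45, the epsilon class 1 of 11 and 0.20, and the 13 other GSTs 1 and 0.15. The delta median was above 0 under each way of centring the arrays. The medians of other GSTs and of epsilon GSTs stood at -0.07 and -0.01 when arrays were centred on 4 control genes, a scale on which the median of all named genes was -0.19. The GSTs had a median dye term of 0.33 (log2 Cy5 over Cy3) beside -0.03 over all named genes. On array 2, where the exposed pool was in Cy3, their median ratio was -0.10, against 0.67 on array 1 and 0.66 on array 3.

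The delta GSTs lie next to each other in the reference annotation, and the response was not shared evenly along them. In chromosomal order, GstD10 (0.18 ± 0.21) and GstD9 (0.55 ± 0.21) precede GstD1, and neither passed. GstD3 (0.45 ± 0.21) and GstD4 (0.30 ± 0.22), between GstD2 and GstD5, did not pass, nor did GstD6 (0.26 ± 0.23) and GstD7 (-0.24 ± 0.48), between GstD5 and GstD8. GstD11, at the far end, had -0.54 ± 0.25. The sequences of these genes are alike, and whether probes took up RNA of a neighbour was not tested. The 13 GSTs of other classes ran from -0.20 to 0.84, and GstT4 at the top was the 1 called. Among them the microsomal Mgstl stood at 0.04 ± 0.25, the sigma-class GstS1 at 0.30 ± 0.27, and se, the omega GST needed for a red eye pigment, at 0.56 ± 0.29. The epsilon run showed the highest ratios in GstE3 (0.79) and GstE1 (0.77), followed by GstE8 (0.56 ± 0.20).

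**Figure D4:**
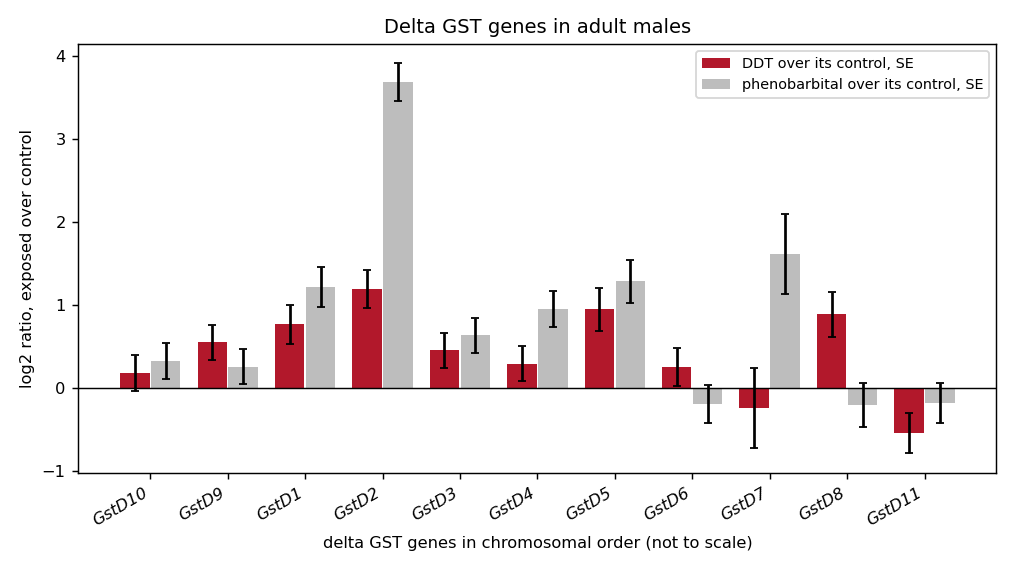
Log2 ratio ± SE of exposed over control for the 11 delta GST genes in chromosomal order, with DDT (red) and phenobarbital (grey) in adult males. With DDT the 4 genes called, GstD1, GstD2, GstD5 and GstD8, stand between 0.77 and 1.19; GstD8 is at -0.20 with phenobarbital.

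Of the 16 esterases 1 was called higher, Ace, and 1 lower, alpha-Est2, and the median was 0.05. Among all 159 genes 4.4% were called higher and 1.89% lower, which is near 1 of 16 each way. In the alpha-esterase cluster the other 7 of 8 members ran from -0.03 (alpha-Est9) to 0.61 ± 0.51 (alpha-Est6) and none passed. alpha-Est7, the gene whose orthologue carries organophosphate resistance in blowflies, stood at 0.02 ± 0.20. alpha-Est3, next to alpha-Est2 in the annotation, stood at 0.10 ± 0.28.

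None of the 3 small heat shock genes, which encode chaperones raised by heat and other stress, was called in limma. At an unadjusted p under 0.05, 2 of the 3 were higher, beside 18 of all 159 genes. The median of the 3 was 0.39, beside 0.03 over all named genes. Hsp22, which acts in mitochondria, had 1.10, 0.20 and 1.11, higher on 3 of 3 arrays, and Hsp26 had 0.84, -0.34 and 1.02. Hsp26 was fitted at 0.39 ± 0.15 (limma, adjusted p = 0.11) and Hsp27 at 0.05 ± 0.19. Both Hsp22 and Hsp26 passed when array 2 was left out.

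The genes taken as steady controls did not sit at 0. The ribosomal protein genes RpL10Aa, RpS20 and RpS21 stood at 0.39 ± 0.23, 0.33 ± 0.24 and 0.26 ± 0.19 and Gapdh1, of glycolysis, at -0.12 ± 0.22, none of them called. On arrays 1, 2 and 3 the median ratio of these 4 genes was 0.84, -0.61 and 1.03. Their median dye term was 0.58, beside -0.03 over all named genes. Centring on these control genes, or on all spots, moved the median of all genes to -0.19 or -0.17. The calls then split into 4 higher and 5 lower, or 5 and 5, in place of 7 and 3. Under both, Cyp4d14 and gas were called lower and GstD1, GstD8 and GstE1 were not called. The 23 genes outside the P450, GST and esterase lists, among them these and the heat shock genes, ran from -1.03 to 0.75 with a median of -0.12, and 0 were called in limma. At an unadjusted p under 0.05, 2 of them were higher, Hsp22 and Hsp26, and 1 was lower, CAH1. Among all 159 genes 18 were higher and 11 lower at that p. Cyp4g1, the P450 of hydrocarbon-making oenocytes, stood at 0.49 ± 0.26 and was not called.

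To see what set DDT apart from a known inducer in the same strain, sex and vial assay, the ratio with phenobarbital was subtracted from that with DDT within the fit. The compounds differ in chemistry and in dose, and each had its own control pool. In limma 13 genes (8.18%) differed at an adjusted p under 0.05 and 1.5-fold, 12 (7.55%) being lower with DDT and 1 higher. The gene higher with DDT was Ace, at 0.83 ± 0.24 with DDT and -0.37 ± 0.24 with phenobarbital. The difference was 1.20 ± 0.33 (limma, adjusted p = 0.0137). On the single arrays Ace ran from 0.32 to 1.34 with DDT and from -0.51 to -0.09 with phenobarbital. Ace was not called in this comparison with values as deposited, without a dye term or with ratios not turned, where 0 genes were higher with DDT.

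The gap was widest for Cyp6a8, at -1.23 ± 0.33 with DDT and 4.12 ± 0.33 with phenobarbital. The difference was -5.35 ± 0.46 (limma, adjusted p = 5.24e-10). On the single arrays Cyp6a8 ran from -2.80 to 0.46 with DDT and from 3.53 to 4.76 with phenobarbital. Its neighbour Cyp6a21, a CYP3-clan P450, was at -0.05 ± 0.21 with DDT and 2.88 ± 0.21 with phenobarbital (difference -2.93 ± 0.29, limma, adjusted p = 6.34e-09).

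GstD2 passed with both compounds but was far lower with DDT, at 1.19 against 3.68 ± 0.23 with phenobarbital (difference -2.49 ± 0.32, limma, adjusted p = 5.81e-07). Cyp6w1 was at 0.51 with DDT and 2.65 ± 0.19 with phenobarbital, and the difference was -2.14 ± 0.27. Cyp6d5 was at 0.33 ± 0.20 with DDT and 2.30 ± 0.20 with phenobarbital (difference -1.98 ± 0.28), and Cyp4ae1 at 0.12 ± 0.24 and 2.11 ± 0.24 (difference -1.99 ± 0.34). For Cyp4d8 and Cyp4d14 the fitted ratios were -0.74 and -0.47 ± 0.23 with DDT and 1.22 and 1.36 with phenobarbital. GstE3 (difference -1.53 ± 0.35) and Cyp12c1 (-0.99 ± 0.22) complete the 10 genes with the smallest p, followed by Cyp4e2 and Cyp6t1.

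**Figure D5:**
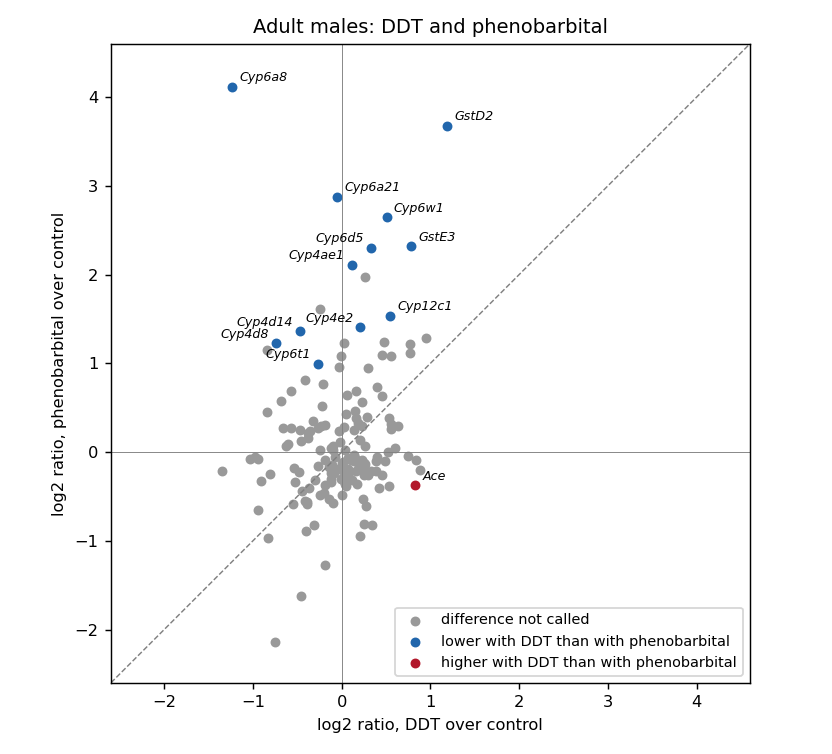
Fitted log2 ratio over control with DDT (x axis) and with phenobarbital (y axis) in adult males, 1 point per gene; the dashed line marks equal ratios. The 12 genes lower with DDT (blue) lie above the line, Cyp6a8 farthest from it, and Ace (red) lies below it.

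In all, 29 genes (18.2%) were called with phenobarbital, 27 of them higher (17%). GstD1, GstD2, GstD5 and GstE1 were higher with both compounds, which makes 57.1% of the 7 genes higher with DDT and 14.8% of the 27 higher with phenobarbital. Cyp6a8 was called lower with DDT and higher with phenobarbital. GstD8 and GstT4 were called with DDT and stood at -0.20 ± 0.27 and -0.09 ± 0.24 with phenobarbital. Their differences, 1.09 ± 0.38 and 0.93 ± 0.34, did not pass (limma, adjusted p = 0.0785 and 0.081). For Cyp6g1 and Cyp6a2, at 0.96 and 1.98 with phenobarbital, the differences of -0.996 ± 0.361 and -1.72 ± 0.59 did not pass either (limma, adjusted p = 0.081 and 0.0785).

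With each pool pair taken as 1 sample, DDT was set against the 8 others, which gave 0 calls (0%) in limma, with 13 genes at an unadjusted p under 0.05. The smallest adjusted p-values were those of Cyp4ac1 (0.101, difference -0.98 ± 0.20), GstD8 (0.122, 0.95 ± 0.22) and Ace (0.157, 0.89 ± 0.24). Against the 5 larval insecticide pool pairs, a comparison planned as an alternative, 14 genes (8.81%) were called in limma. GstD2, GstT4, GstD8, Ace and GstD5 were higher with DDT, by 1.06 ± 0.26, 0.97 ± 0.18, 0.88 ± 0.19, 0.84 ± 0.21 and 0.80 ± 0.21. Cyp6a8, Cyp4ac1 and alpha-Est2 were among the 9 lower ones, by -1.29 ± 0.24, -0.99 ± 0.19 and -0.81 ± 0.19. There the lone DDT pair was assumed to vary like the others, and compound and life stage cannot be told apart.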

How the data were processed

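The deposited values were log2 ratios of the 2 dyes per spot, per the labels and the file itself. The submitters' processing notes name limma, with no version or role, and background correction and normalization were not given in the sources used here. A ceiling code in 44 to 58 spots per DDT array was treated as missing. Precision is limited by the number of arrays, and signal over background is not known because no intensities were used.

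The 4 spots of a gene were averaged (155 of 159 genes had 4 spots). Arrays were centred on the median of the named genes, and ratios were turned to exposed over control. limma 3.58.1 in R 4.3.3 fitted 34 arrays with 1 coefficient per compound and stage and a common dye term. The call was an adjusted p under 0.05 (Benjamini-Hochberg over 159 genes) and at least 1.5-fold. The pool-pair comparisons used the means of 9 pool pairs. The fit was tested on simulated data. These were drawn as independent noise around the fitted model with its common dye term. The test therefore does not cover a dye effect that differs on the DDT arrays. Figures used Python 3.11.15 with pandas 2.3.3, numpy 2.4.6 and matplotlib 3.10.9. Gene order came from the RefSeq annotation of the Release 6 plus ISO1 MT assembly, which held 158 of the 159 genes. No genome build is named by the files.

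The members and gene lists were chosen with earlier results of these data known. Named with values were all genes called with DDT, the 10 highest and 10 lowest ratios, the genes tied to DDT in earlier literature, the small heat shock, control, acetylcholinesterase and neuroligin genes, and the 10 smallest p-values against phenobarbital. Neighbours of these genes, genes just outside the threshold and genes called under single alternatives were named after their values were seen. Alternatives covered centring, dye terms, arrays used, spot summary, spot filter, ceiling code, turning and minimum fold.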

Additional observations from a re-analysis of the deposited data

Results flagged for a closer look

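The ratio over control differed between DDT and phenobarbital in adult males for 13 genes (limma contrast, adjusted p under 0.05 and 1.5-fold), by array error only. The difference, DDT minus phenobarbital on the log2 scale, was 1.20 for Ace. It was negative for the other 12. The P450s of the CYP3 clan gave -5.35 (Cyp6a8), -2.93 (Cyp6a21), -2.14 (Cyp6w1), -1.98 (Cyp6d5) and -1.26 (Cyp6t1). Those of the CYP4 clan gave -1.99 (Cyp4ae1), -1.96 (Cyp4d8), -1.84 (Cyp4d14) and -1.19 (Cyp4e2), and the mitochondrial Cyp12c1 gave -0.99. Among GSTs the differences were -2.49 (GstD2) and -1.53 (GstE3). No group had 4 usable arrays of DDT, so single arrays were not tested for standing apart.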

How the results depend on the processing

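The number of genes called with DDT, 10, was 0 with values as deposited, without a dye term, with 6 adult arrays only and with 3 DDT arrays only. It was 1 when arrays were scaled to equal spread, 2 with a separate DDT dye term and 65 with ratios not turned. With array number as a replicate block in place of the dye term it was 4 (GstD2, Cyp4ac1, Cyp6a8 and alpha-Est2). Odd numbers carried the exposed pool in Cy5 and even numbers in Cy3, so the block also took up a dye effect. The numbers pair nothing else in the labels. Residuals of same-numbered DDT and phenobarbital arrays correlated at 0.09, -0.18 and -0.18 across genes, and those of differently numbered arrays between -0.19 and 0.27. Leaving out 1 DDT array gave 3 to 17 calls, 17 without array 2 and 3 without array 1 or array 3. GstD2 was called in all 3 of these fits. The contrast with phenobarbital, 13, became 37 centred on all spots, 31 on control genes, 26 scaled, 20 with array 4 kept as DDT, 22 with array 4 kept and a separate DDT dye term, 8 without a dye term and 1 with ratios not turned, and 13 to 19 leaving out a DDT array. Against the other 8 pool pairs, 0 became 1 with the median over spots, 1 to 6 leaving out a DDT array (6 without array 2) and 14 against the 5 insecticide pairs. With ratios not turned, alpha-Est2 was 0.49, Gapdh1 0.67 and GstD8 -0.044, on the other side of 0. In at least 1 of the other alternatives 6 named ratios, none of them called, changed sign (Cyp6a2, Cyp6g1, Gapdh1, Hsp27, Nlg1 and Nlg3); Cyp6a2 was -0.12 without array 2. Of 19 alternatives, GstD2 and alpha-Est2 were called in 13, Cyp4ac1 in 12, Ace in 10, GstD5 in 9, Cyp6a8, GstE1 and GstT4 in 8, GstD8 in 5 and GstD1 in 4. The cause of these shifts was not tested. Precision was limited by 3 arrays of 1 pool pair, a median SE of 0.26 and a median SD between spots of 0.49.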

Other observations

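The values labelled array 4, which 2 experiments share, were used above only in the alternatives that kept them as DDT. They were compared with the DDT ratios after the same centring, with the exposed pool taken as Cy3. Across genes they correlated at r = 0.83 with DDT array 2. Of the 10 genes called with DDT, 6 lay on the same side there: GstD8 at 0.85, GstD2 at 0.64, GstT4 at 0.14, Ace at 0.12, Cyp4ac1 at -0.18 and alpha-Est2 at -0.85. The other 4 lay on the opposite side, with Cyp6a8 at 0.95, GstD5 at -0.03, GstD1 at -0.31 and GstE1 at -0.33. Cyp6a8, GstD2, Cyp6a21 and Cyp6w1 had the highest fitted ratios with phenobarbital. On array 4 they stood at 0.95, 0.64, -0.84 and 0.002. On phenobarbital array 2, also with the exposed pool in Cy3, they stood at 4.76, 3.65, 2.77 and 2.57. Which experiment the values labelled array 4 came from was not tested. With those values kept as DDT and a separate DDT dye term, an alternative chosen after the data were seen, 14 genes were called, 9 higher and 5 lower. All 10 genes called without array 4 were among them, and the further 4 were GstE3, Gdap1, Cyp6a14 and gas. Kept as DDT with the common dye term they gave 9 calls.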
